A study of Mus musculus with 4 samples.

Results

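The 36 genes described here encode the granule proteins, receptors, and transcription factors by which neutrophils and their precursors are recognized. They were chosen by symbol from a fixed list and all 36 were found among the 55401 genes of the table. They were read in 3 groups by the stage at which they are known to be expressed, with 8 early granule genes, 13 late granule genes, and 15 genes of mature neutrophils. The series holds RNA from CD45+ cells, that is, leukocytes, sorted from the dura mater of WT C57BL/6J mice. The mice had received 2 μl of an adeno-associated vector (AAV, serotype 9) into the cisterna magna at 4 wk of age. AAV-mVEGF-C carried mouse VEGF-C, the main growth factor of lymphatic vessels, and AAV-CTRL carried mVEGFR3 4-7-Ig, a soluble piece of VEGFR-3 that does not bind VEGF-C. Each group had 2 libraries, and each library came from the dura of 10 to 12 mice pooled together, so the spread between libraries is that between pools and not between single mice. Mice without any vector are not part of these libraries, and the age of these pools at collection is not given in the sources used here.

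Neutrophils are made in the bone marrow, and the precursors fill their granules in a fixed order. Promyelocytes transcribe the azurophil granule proteins, myelocytes and metamyelocytes then turn to the specific granule and gelatinase granule proteins, and mature cells instead express surface receptors and the cytosolic proteins S100A8 and S100A9. The mRNAs of the azurophil proteins are shut off well before the cell leaves the marrow, so blood neutrophils carry the proteins but little of these transcripts. The skull has its own marrow, which is joined to the dura by channels through the inner bone.

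Of the 3 stage lists, the early granule list varied most between libraries in what follows, though its *Gfi1* and *Cebpe* varied less. The promoters of 4 early granule genes are shown with those of 2 mature genes, *S100a9* and *Csf3r*. Each line gives 120 bases upstream of the RefSeq start, in the direction of transcription, on GRCm38.p6. The window was moved upstream where needed so that it holds no GENCODE exon. Capitals mark matches on either strand to 3 short motifs named for the myeloid factors known to bind them, TTGCNNAA for C/EBP, AGGAAG for ETS factors such as PU.1, and TGTGGT for RUNX, and no match to one motif overlapped a match to another.
Elane, chr10:79886127-79886246, plus strand: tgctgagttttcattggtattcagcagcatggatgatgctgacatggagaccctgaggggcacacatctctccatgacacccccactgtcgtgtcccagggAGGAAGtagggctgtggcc
Prtn3, chr10:79879494-79879613, plus strand: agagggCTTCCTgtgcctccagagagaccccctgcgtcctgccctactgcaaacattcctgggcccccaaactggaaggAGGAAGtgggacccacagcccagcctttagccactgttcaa
Ctsg, chr14:56102575-56102694, minus strand: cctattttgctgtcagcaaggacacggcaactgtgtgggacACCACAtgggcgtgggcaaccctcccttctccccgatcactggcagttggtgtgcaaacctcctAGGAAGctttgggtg
Ms4a3, chr19:11640852-11640971, minus strand: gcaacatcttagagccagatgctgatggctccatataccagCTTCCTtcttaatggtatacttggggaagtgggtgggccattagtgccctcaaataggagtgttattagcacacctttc
S100a9, chr3:90695722-90695841, minus strand: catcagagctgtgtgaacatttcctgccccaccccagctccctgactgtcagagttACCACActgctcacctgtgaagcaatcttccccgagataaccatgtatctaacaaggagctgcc
Csf3r, chr4:126024430-126024549, plus strand: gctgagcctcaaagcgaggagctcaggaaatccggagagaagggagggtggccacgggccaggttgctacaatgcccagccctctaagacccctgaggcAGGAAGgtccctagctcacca
The windows of *Elane*, *Ctsg*, *Ms4a3*, *S100a9*, and *Csf3r* end at the base before the first exon of the GENCODE M21 gene, whereas that of *Prtn3* lies in an intron of its longest gene model. Counted over the 120 bases directly before the RefSeq start, 5 of the 6 early granule genes with a single promoter record held the ETS letters, against 6 of 11 late granule genes and 6 of 14 mature genes. These letters occur in 16.3% of 32851 mouse promoters of the same length. The C/EBP letters were found in 3 of the 11 late granule promoters, those of *Ltf*, *Ngp*, and *Mmp8*, in 0 of 6 early and 0 of 14 mature promoters, and in 4.15% of all promoters. The RUNX letters were found in 1 of 6, 1 of 11, and 3 of 14 promoters, and in 6.72% of all. A match describes the letters only and is no evidence that a factor binds.

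Values per library are estimated reads divided by the scaled library size, which gives CPM, a relative abundance, and levels of different genes are compared only in TPM, which also corrects for gene length. Pairs of values for a group give its pool 1 first and its pool 2 second, and sets of 4 give AAV-CTRL 1 and 2 before AAV-mVEGF-C 1 and 2. The libraries held 32520709 to 46409700 reads assigned to genes, and the member with the fewest reads in any library had 417. For most members counting error was thus small beside the spread between pools. It was not where the AAV-mVEGF-C pools nearly coincided, as for *Ifitm6* at 101.7 and 101.5 CPM. *Ptprc*, which encodes CD45, lay between 191.0 and 215 TPM in all 4 libraries. AAV-CTRL 1 stood apart from the other libraries. It had the most reads and yet the fewest detected genes (20990, against up to 37512), and across genes its log2 CPM correlated with the other libraries at r = 0.925 to 0.934, whereas the others correlated with each other at 0.968 or more. The main results are therefore also given without it.

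Neutrophil transcripts were abundant in these sorted cells. The most abundant member by TPM was *S100a9*, with 6214 to 13613 TPM over the 4 libraries, and next came its partner *S100a8* (3195 to 6459.9 TPM) and *Ngp*, a cathelin-like protein of specific granules (3011 to 7008 TPM), whose ranges overlapped each other. *Ltf* and *Lyz2* followed with overlapping ranges of 1596 to 3210.0 TPM and 1736 to 2173 TPM, and the lowest member was the transcription factor gene *Gfi1*, with 6.49 to 8.43 TPM. All 36 members passed the filter on low reads. In total the members took 3.88% of the reads in AAV-CTRL 1 (95% Wilson interval 3.87 to 3.88), 2.04% in AAV-CTRL 2 (2.04 to 2.05), 2.59% in AAV-mVEGF-C 1 (2.59 to 2.60), and 2.73% in AAV-mVEGF-C 2 (2.73 to 2.74). Reads copied by PCR from 1 molecule are counted more than once, so these intervals cover counting error and nothing else. Both AAV-mVEGF-C pools lay between the 2 control pools, and the means were 2.96% ± 1.30 (SD, n = 2) for the controls and 2.66% ± 0.0991 (SD, n = 2) for AAV-mVEGF-C. The difference of -0.30 percentage points was smaller than the spread between control pools (exact two-sided permutation test, p = 1.0), and with 2 pools against 2 this test cannot go below 0.333. Without AAV-CTRL 1 the difference turned to 0.62 percentage points. In bulk RNA such as this, fewer neutrophils and less of these RNAs per neutrophil cannot be told apart.

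Between groups, none of the neutrophil genes was called. At an adjusted p under 0.05 edgeR's quasi-likelihood test called 0 of 36 members, against a background of 0% of 19806 genes tested. A block on the pool number gave 0 of 36 (0.0555% of all genes) and a block on the crossed numbers 0 of 36 (0.273%). DESeq2 called 0 of 36 members where it called 0.389% of all genes, and limma-voom called 0 of 36 and 0% of all genes. At an unadjusted p under 0.05 edgeR found 1 member higher in AAV-mVEGF-C, *Csf3r*, where 1.46% of all genes were higher, and 0 members lower, where 1.18% were lower. Among the 9337 genes with a mean of at least 10 CPM, a level that every member exceeds, these shares were 1.77% and 1.16%. The standard errors of the members' log2 fold changes ran from 0.17 to 0.70, and the largest, 0.58 to 0.70, belonged to 5 early granule genes, for which a 2-fold difference would lie within 2 SE of 0. The median log2 fold change of the 36 members was 0.00, with 18 above 0, and that of all tested genes was 0.0034, with 50.4% above 0 and 43.1% among those with at least 10 CPM.

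**Figure D1:**
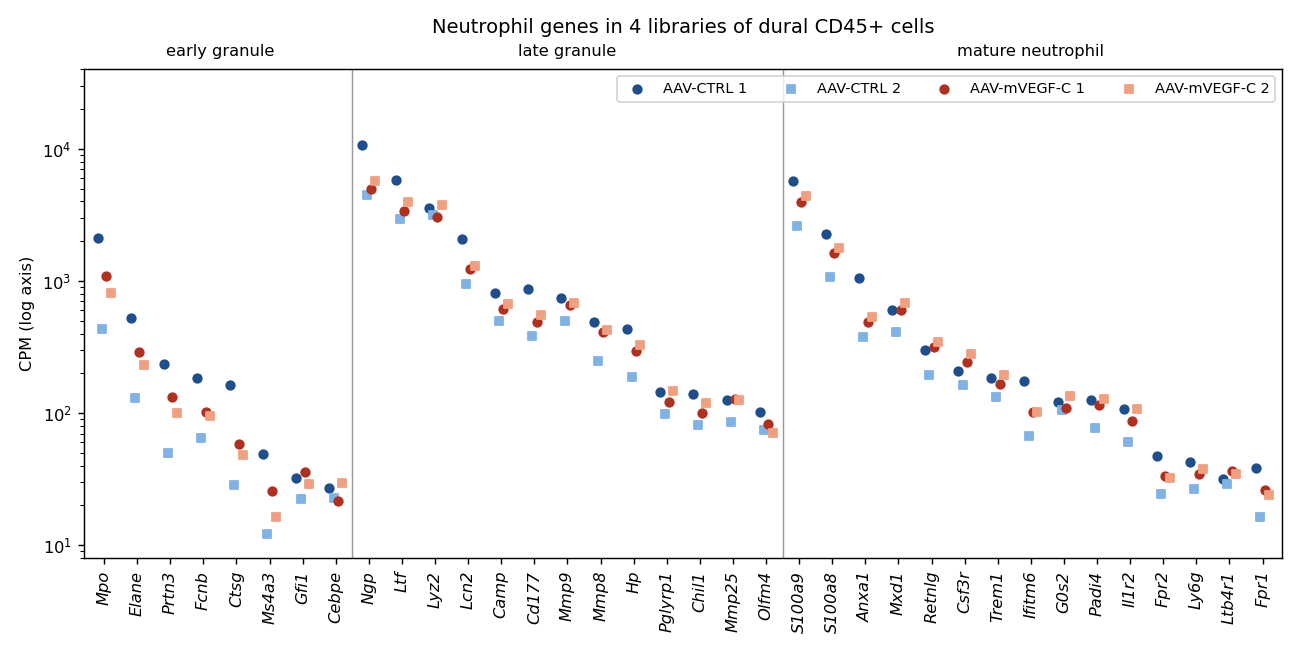
CPM of each of the 36 genes on a log axis, with 1 point for each of the 4 libraries and the genes ordered by stage list. AAV-CTRL 1 lies above AAV-CTRL 2 for all 36 genes, by most for *Ctsg* (164 against 28.8 CPM), and the AAV-mVEGF-C points mostly lie between them.

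The plot of CPM by library shows the pattern that all stage lists had in common, a wide gap between the control pools. AAV-CTRL 1 exceeded AAV-CTRL 2 in 36 of 36 members and was the highest of all libraries in 23 of 36, where it was the highest in 32.6% of all genes tested and in 42.2% of those with at least 10 CPM. AAV-CTRL 2 was the lowest library in 33 of 36, all but *Cebpe*, *Olfm4*, and *Lyz2*, where it was the lowest in 19.4% of all genes and in 26% of those with at least 10 CPM. For 22 of 36 members both AAV-mVEGF-C libraries fell between the controls with AAV-CTRL 1 on top, which 11.4% of all genes did and 16.4% of those with at least 10 CPM. In CPM, both AAV-mVEGF-C libraries lay above both controls for 3 of 36 members, against 16.8% of all genes (14.6% of those with at least 10 CPM). They lay below both for 0 of 36, against 15.2% (16.8% of those with at least 10 CPM). In TPM, *Olfm4* lay below both, at 29.2 and 29.4 TPM in the control pools and 27.5 and 23.3 TPM in the AAV-mVEGF-C pools. The sign of the group difference was positive for 36 of 36 members without AAV-CTRL 1 and negative for 29 of 36 without AAV-CTRL 2. Thus 7 kept a positive sign with either control, *Csf3r* and *Retnlg* among them. The median log2 fold change over all genes tested was 0.0023 without AAV-CTRL 1 and 0.13 without AAV-CTRL 2.

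The early granule genes mostly encode azurophil proteins, with 2 transcription factors of the same precursors. *Mpo*, the myeloperoxidase that makes hypochlorous acid, had 2116 and 431 CPM in the control pools and 1090.2 and 809 CPM in the AAV-mVEGF-C pools. *Elane*, neutrophil elastase, had 525 and 129.8 CPM in the control pools and 289.9 and 233 CPM in the AAV-mVEGF-C pools. In both genes the AAV-mVEGF-C libraries were close to each other and lay inside a wide control range, so the groups overlapped. *Prtn3*, proteinase 3, which adjoins *Elane* on chromosome 10, gave 236 and 49.7 CPM in the control pools and 132 and 101 CPM in the AAV-mVEGF-C pools. *Fcnb*, a ficolin that recognizes sugars on microbes, gave 183 and 64.5 CPM in the control pools and 101 and 95.2 CPM in the AAV-mVEGF-C pools. The same order of libraries was found for all 4 genes, with AAV-CTRL 1 highest, AAV-mVEGF-C 1 next, and AAV-CTRL 2 lowest. The log2 fold changes by edgeR's quasi-likelihood test were -0.42 (SE 0.66, adjusted p = 0.999) for *Mpo* and -0.33 (SE 0.58, adjusted p = 0.999) for *Elane*, both smaller than their errors. For *Prtn3* the value was -0.29 (SE 0.64, adjusted p = 0.999) and for *Fcnb* -0.33 (SE 0.45, adjusted p = 0.999), again within 1 SE of 0.

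The remaining early genes included 2 more with that order. *Ctsg*, the granule protease cathepsin G, had 164, 28.8, 58.3, and 48.3 CPM, and *Ms4a3*, a membrane protein of granulocyte-monocyte progenitors, had 48.6, 12.1, 25.6, and 16.3 CPM. The 2 transcription factor genes of the list varied less. *Gfi1*, a repressor needed for granulocyte fate, had 32.3, 22.4, 35.7, and 29.0 CPM, and *Cebpe*, which drives the change from azurophil to specific granule genes, had 27.1, 22.6, 21.6, and 29.8 CPM. Across the 6 early genes other than *Gfi1* and *Cebpe*, AAV-CTRL 1 was 2.83 to 5.70 times AAV-CTRL 2, whereas AAV-mVEGF-C 1 was 1.07 to 1.57 times AAV-mVEGF-C 2. Over 2-fold higher in AAV-CTRL 1 than in AAV-CTRL 2 were all 6 of them and 15 of 36 members in all, against 6.62% of all genes and 1.96% of genes with at least 10 CPM. When genes of few reads were also tested, edgeR called *Ctsg* alone among the members, as lower in AAV-mVEGF-C, against 0.659% of all genes in either direction and 0.189% lower. The reverse of the control split, over 2-fold higher in AAV-CTRL 2, was seen for 0 of 36 members and 20.8% of all genes (2.83% of those with at least 10 CPM), and 0 of 36 were over 2-fold higher in AAV-mVEGF-C 1 than in AAV-mVEGF-C 2, where 9.8% of genes were (0.493% of those with at least 10 CPM). The 4 genes with printed promoters that belong to this list all followed the order of *Mpo*.

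**Figure D2:**
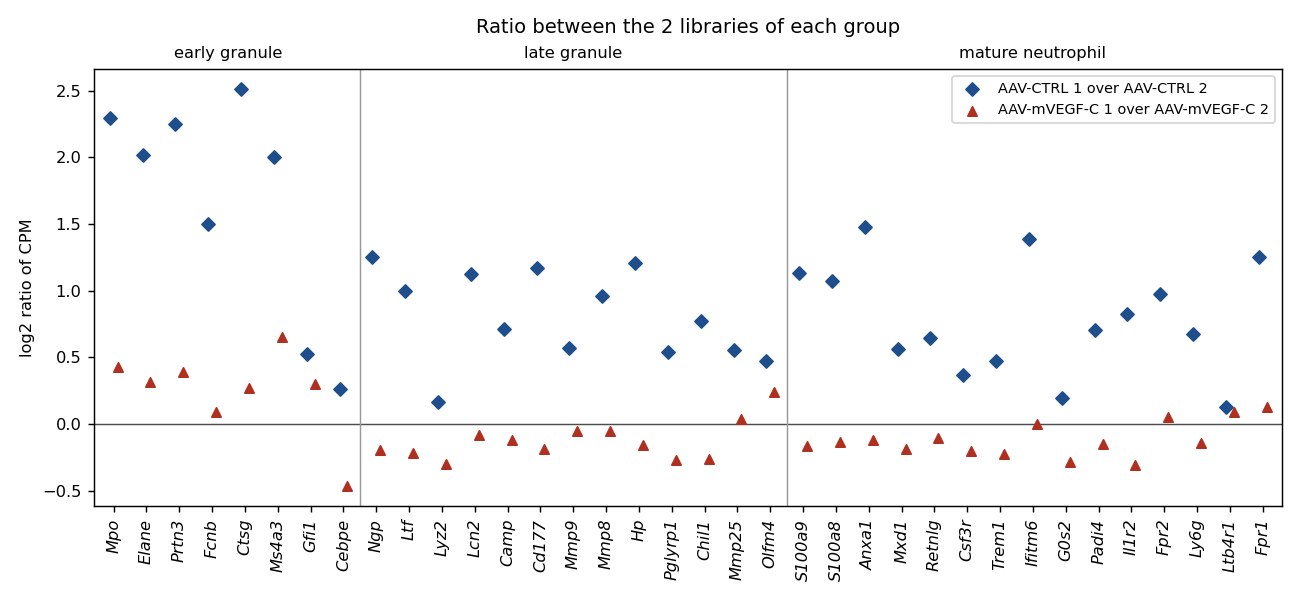
Log2 ratio of CPM between the 2 libraries of each group for every member, AAV-CTRL 1 over AAV-CTRL 2 and AAV-mVEGF-C 1 over AAV-mVEGF-C 2, ordered by stage list. The control ratios of *Mpo*, *Elane*, *Prtn3*, *Ctsg*, *Ms4a3*, and *Fcnb* are the highest, and the AAV-mVEGF-C ratios stay near 0, with those of the same 6 genes above it and most late and mature genes below it.

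The split between control pools was smaller for the genes of later stages. The median fold of AAV-CTRL 1 over AAV-CTRL 2 was 4.03 for the 8 early granule genes, 1.71 for the 13 late granule genes, and 1.63 for the 15 mature genes, and 0.98 over all genes tested. Between the AAV-mVEGF-C pools the corresponding medians were 1.24, 0.897, and 0.908, and 0.998 over all genes. The direction of the AAV-mVEGF-C ratio also differed by list, with AAV-mVEGF-C 1 above AAV-mVEGF-C 2 for 7 of 8 early genes, for 2 of 13 late genes, and for 4 of 15 mature genes. These are descriptions of 4 pools, and genes of 1 stage share the same cells and are not replicates.

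How much AAV-CTRL 1 and AAV-CTRL 2 weighed in the early granule values was seen by leaving out each in turn, which leaves 1 control pool whose spread is taken to be like that of the other group. Without AAV-CTRL 1, edgeR called 5 of 36 members, all higher in AAV-mVEGF-C, against 1.85% of all genes in either direction and 0.781% higher. These were *Prtn3*, *Elane*, *Mpo*, and *Ctsg*, with log2 fold changes of 1.21, 0.99, 1.12, and 0.87, and *Retnlg* with 0.76. Without AAV-CTRL 2, 9 of 36 were called, all lower, against 9.19% of all genes in either direction and 3.04% lower. They were *Mpo* at -1.15, *Elane* at -0.999, *Prtn3* at -1.01, *Ctsg* at -1.61, *Ms4a3* at -1.21, *Fcnb* at -0.89, *Cd177* at -0.72, *Ifitm6* at -0.77, and *Anxa1* at -1.03. *Mpo*, *Elane*, *Prtn3*, and *Ctsg* were thus called in opposite directions depending on the control pool left out. The median of the early list moved from -0.33 with all pools to 0.82 without AAV-CTRL 1 and -1.005 without AAV-CTRL 2. With all pools it also depended on the method, being -0.018 with limma-voom, -0.017 with the block on the pool number, and -0.16 on the TPM scale, and *Prtn3* was then at 0.074, 0.089, and -0.098. No member was called when either AAV-mVEGF-C pool was left out, where 0.0097% and 0.284% of all genes were called.

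Late granule genes mostly encode the proteins of specific and gelatinase granules. *Ltf*, the iron-binding protein lactoferrin, had 5858 and 2941 CPM in the control pools and 3411 and 3967 CPM in the AAV-mVEGF-C pools. *Lcn2*, a lipocalin that binds bacterial siderophores, had 2071 and 951 CPM in the control pools and 1230.0 and 1304 CPM in the AAV-mVEGF-C pools. *Ngp* had 10599.6 and 4451 CPM in the control pools and 4964 and 5679 CPM in the AAV-mVEGF-C pools. In these 3 genes AAV-CTRL 1 was the highest library by a clear margin, and the other 3 libraries lay close together with AAV-CTRL 2 lowest. The log2 fold change by edgeR was -0.25 (SE 0.33, adjusted p = 0.999) for *Ltf*, -0.25 (SE 0.35, adjusted p = 0.999) for *Lcn2*, and -0.50 (SE 0.39, adjusted p = 0.999) for *Ngp*, and the groups overlapped for each. Without AAV-CTRL 1 these values turned to 0.31, 0.40, and 0.24. *Lyz2*, lysozyme, had 3543 and 3158 CPM in the control pools and 3064 and 3765 CPM in the AAV-mVEGF-C pools, with a log2 fold change by edgeR of 0.027 (SE 0.18, adjusted p = 0.999). *Lyz2* was nearly level across the libraries, and it is also a gene of monocytes and macrophages and shares sequence with its neighbour *Lyz1*, so part of its reads may have been divided between them.

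The other late genes were lower in level, and AAV-CTRL 1 was the highest library for all of them but *Mmp25* and *Pglyrp1*. *Camp*, the cathelicidin antimicrobial peptide precursor, had 817, 499.9, 614, and 666 CPM, and *Cd177*, a surface glycoprotein of neutrophils, had 864, 383, 486, and 553 CPM. *Hp*, haptoglobin, had 436, 189, 294, and 328 CPM. Among the granule metalloproteinases, *Mmp8*, the neutrophil collagenase, had 485, 249, 412, and 428 CPM, *Mmp9*, the gelatinase of the tertiary granules, had 739.9, 499, 658, and 682 CPM, and *Mmp25*, a membrane-anchored form, had 126, 85.8, 128, and 125 CPM. In all 3 metalloproteinase genes AAV-CTRL 2 was the lowest library and the AAV-mVEGF-C pair was nearer to AAV-CTRL 1 than to AAV-CTRL 2. *Chil1*, a chitinase-like protein of specific granules, had 139, 81.6, 100.2, and 120.02 CPM. *Pglyrp1*, a peptidoglycan-binding protein, had 143, 98.5, 122, and 147 CPM, and *Olfm4*, which marks a subset of neutrophils, had 103, 74.0, 83.1, and 70.5 CPM. *Olfm4* was the only late gene with its lowest value in an AAV-mVEGF-C library, apart from *Lyz2*. The median log2 fold change of the 13 late genes was -0.01, with 5 of 13 above 0, and it was 0.41 without AAV-CTRL 1 and -0.34 without AAV-CTRL 2. On the TPM scale 2 of 13 were above 0, and with limma-voom or the block on the pool number 8 of 13 were. AAV-CTRL 1 was over 2-fold above AAV-CTRL 2 for *Lcn2*, *Cd177*, *Hp*, and *Ngp*.

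Genes of mature neutrophils encode receptors, signal proteins, and the abundant cytosolic proteins. *S100a9* and *S100a8*, which lie beside each other on chromosome 3 and form calprotectin, had 5696, 2597, 3925, and 4401 CPM and 2264, 1076, 1620.5, and 1784 CPM. Their log2 fold changes by edgeR were 0.0056 (SE 0.36, adjusted p = 0.999) and 0.027 (SE 0.34, adjusted p = 0.999), with both AAV-mVEGF-C pools inside the control range. *Anxa1*, annexin A1, which limits neutrophil recruitment, had 1056 and 379.9 CPM in the control pools and 491 and 534 CPM in the AAV-mVEGF-C pools. Its log2 fold change by edgeR was -0.49 (SE 0.44, adjusted p = 0.999), and its high value was confined to AAV-CTRL 1, which was 2.78 times AAV-CTRL 2. Without AAV-CTRL 1 its log2 fold change was 0.41. Those of *S100a9* and *S100a8* were then 0.66 and 0.65.

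*Csf3r*, the receptor for G-CSF, the cytokine that drives neutrophil production, was 1 of 3 members whose groups did not overlap in CPM. It had 209 and 162 CPM in the control pools and 244 and 281 CPM in the AAV-mVEGF-C pools, with a log2 fold change of 0.50 (SE 0.19) and an unadjusted p = 0.0388 that became an adjusted p = 0.999 in edgeR's quasi-likelihood test. With each pool left out in turn, its log2 fold change lay between 0.34 and 0.68 and was called in 0 of the 4 fits. *Retnlg*, a resistin-like protein of blood neutrophils, had 302 and 193 CPM in the control pools and 319 and 343 CPM in the AAV-mVEGF-C pools, with a log2 fold change by edgeR of 0.42 (SE 0.24, adjusted p = 0.999). The third was *Ltb4r1*, the leukotriene B4 receptor, with 31.6, 28.9, 36.7, and 34.5 CPM. For these genes AAV-CTRL 2 was the lowest library, as for most of the list, and AAV-CTRL 1 lay under the AAV-mVEGF-C pair rather than above it. A count of 3 of 36 is below the 16.8% of all genes that did not overlap in this direction. Of these 3 genes, *Csf3r* alone still separated the groups on the TPM scale, with 61.6, 56.4, 74.9, and 85.0 TPM. *Retnlg* (557, 365, 507, and 562 TPM) and *Ltb4r1* (16.7, 15.9, 17.6, and 16.4 TPM) overlapped in TPM. In the lower direction *Olfm4* separated the groups in TPM, as given above.

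The remaining mature genes divided by where AAV-CTRL 1 stood. It was the highest library for *Ifitm6*, an interferon-induced membrane protein of myeloid cells, at 174, 66.7, 102, and 101 CPM, for *Fpr1* and *Fpr2*, the receptors of formylated peptides, at 38.8, 16.3, 26.4, and 24.2 CPM and 47.8, 24.3, 33.5, and 32.2 CPM, and for *Ly6g*, the standard surface marker of mouse neutrophils, at 42.8, 26.7, 34.5, and 38.0 CPM. The formyl peptide receptor genes are close relatives side by side on chromosome 17. Estimated counts were whole in all libraries for *Fpr1* but not for *Fpr2*, so the counts show no reads divided between these genes. AAV-CTRL 1 was level with or slightly under AAV-mVEGF-C 2 for *Padi4*, the enzyme that citrullinates histones in neutrophil traps, at 125, 76.6, 114, and 127 CPM, for *Trem1*, an activating receptor, at 183, 132, 167, and 195 CPM, and for *Il1r2*, the decoy receptor of IL-1, at 107, 60.3, 87.5, and 108 CPM. *Mxd1*, a MAX partner of cells leaving the cycle, had 605, 409, 602, and 686 CPM, and *G0s2*, an inhibitor of lipolysis, had 122, 106, 110.2, and 134 CPM. *Ly6g* and *Fpr1*, at low levels, and *S100a9*, at a high one, thus had the same order of the controls. Over the 15 mature genes the median log2 fold change was 0.10, with 11 of 15 above 0, and it moved to 0.61 without AAV-CTRL 1 and -0.11 without AAV-CTRL 2. On the TPM scale, where the median of all genes was -0.078, 8 of 15 were above 0.

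**Figure D3:**
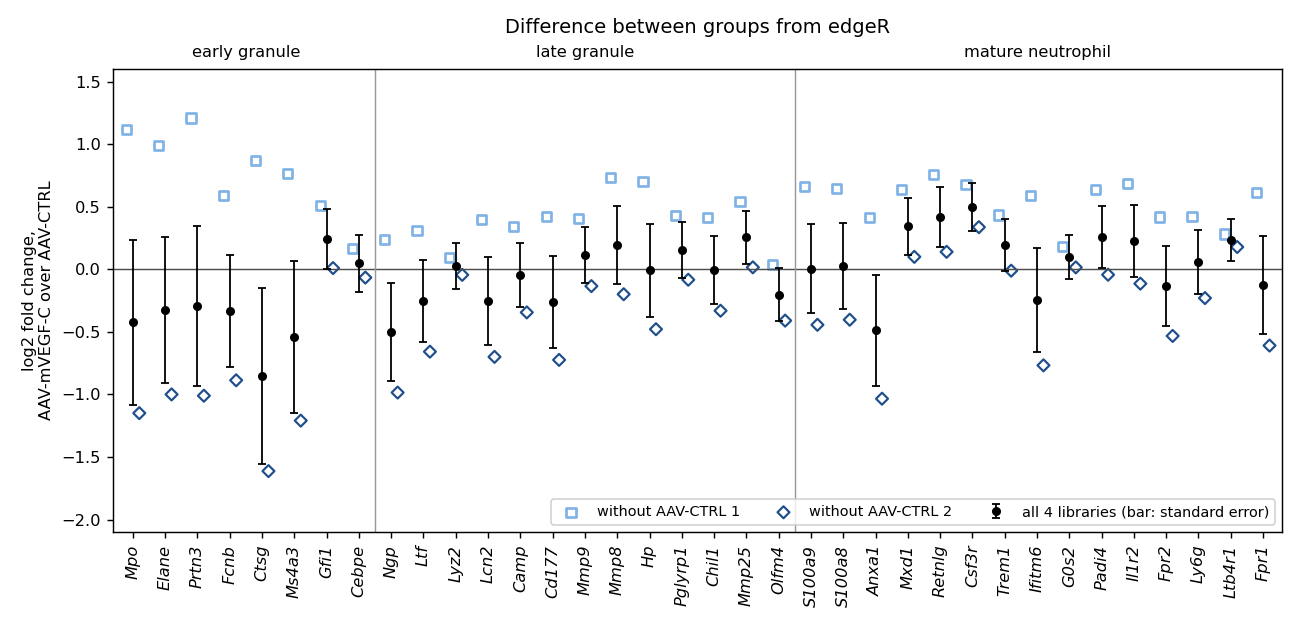
Log2 fold change of AAV-mVEGF-C over AAV-CTRL for each member from edgeR with all 4 libraries, with bars of 1 SE, and the same without AAV-CTRL 1 and without AAV-CTRL 2. Without AAV-CTRL 1 all 36 values are above 0, and without AAV-CTRL 2 29 of 36 are below 0. The spread is widest for the early granule genes other than *Gfi1* and *Cebpe*.

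Ratios of stage lists within a library are not moved by a factor common to all neutrophil genes of that library. Summed TPM were 1579, 399, 778, and 612 for the early list, and 22106, 10589, 13208, and 15353 for the mature list. The log2 ratio of early to mature was -3.81 and -4.73 in the control pools and -4.09 and -4.65 in the AAV-mVEGF-C pools. The first pool of each group had the higher ratio, and the groups overlapped (difference -0.098, p = 1.0 by exact two-sided permutation). The sign of that difference depended on single pools, being 0.36 without AAV-CTRL 1, 0.18 without AAV-mVEGF-C 2, and -0.56 without AAV-CTRL 2. The ratio of early to late, without *Lyz2*, was -3.19 and -4.14 in the control pools and -3.21 and -3.73 in the AAV-mVEGF-C pools, which also overlapped (difference 0.19, p = 1.0 by exact two-sided permutation), and the difference was 0.67 without AAV-CTRL 1, -0.29 without AAV-CTRL 2, and -0.067 without AAV-mVEGF-C 1. In either treatment the first pool thus carried more early transcripts for their mature transcripts than the second pool. *S100a8* and *S100a9* made up most of the summed mature TPM in every library. Without these genes the early to mature log2 ratio was -0.36 and -1.56 in the control pools and -0.91 and -1.39 in the AAV-mVEGF-C pools.

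The ratio of late to mature transcripts, again without *Lyz2*, was the one stage ratio that separated the groups. Its log2 value was -0.62 and -0.59 in the control pools and -0.87 and -0.92 in the AAV-mVEGF-C pools, with means of -0.60 ± 0.022 (SD, n = 2) and -0.89 ± 0.032 (SD, n = 2). The difference of -0.29 was larger than the spread within either group, and the exact two-sided permutation test gave p = 0.333, the smallest that 2 against 2 allows. With *Lyz2* kept in, so that all 13 late genes counted, the values were -0.42 and -0.22 in the control pools and -0.56 and -0.58 in the AAV-mVEGF-C pools. The control SD was then 0.14 in place of 0.022. Without *S100a8* and *S100a9*, which made up most of the mature sum, the ratio was 2.82 and 2.58 in the control pools and 2.30 and 2.34 in the AAV-mVEGF-C pools. The share of reads from mitochondrial genes also separated the groups, at 9.61% and 8.63% in the control pools and 6.49% and 7.30% in the AAV-mVEGF-C pools, and its part in this ratio was not tested. The late to mature ratio was added after the values of the members had been seen. As a mean of log2(TPM + 1), in which each gene counts alike, the late minus mature value still separated the groups, at 0.91 and 0.84 in the control pools and 0.72 in both AAV-mVEGF-C pools (p = 0.333 by exact two-sided permutation). Without *Ngp* and *Ltf*, the 2 most abundant late genes, the ratio of sums was -2.41 and -2.21 in the control pools and -2.35 and -2.46 in the AAV-mVEGF-C pools, which overlap (difference -0.10, p = 0.667 by exact two-sided permutation). Set over the summed mature list one at a time, 7 of the 13 late genes, *Lyz2* included, had the lower mean in AAV-mVEGF-C. Of these, *Ltf*, *Lcn2*, *Ngp*, and *Cd177* were lower in both AAV-mVEGF-C pools than in both controls, 4 of 13 against 10.3% of all genes tested and 8.44% of those with at least 10 CPM. *Mmp8* was higher in both, 1 of 13 against 3.97% and 1.01%.

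**Figure D4:**
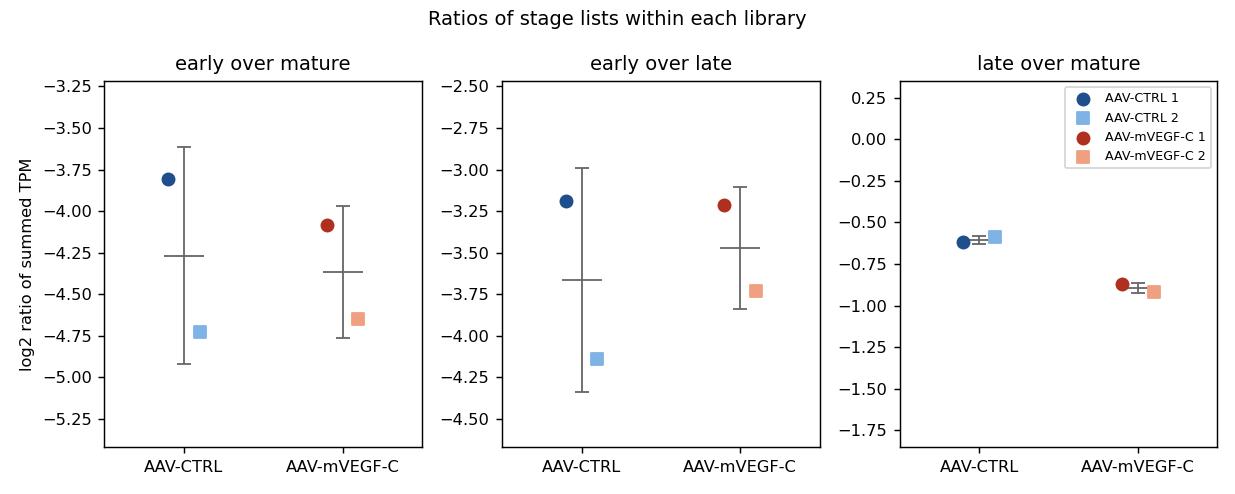
Log2 ratio of summed TPM between stage lists in each library, for early to mature, early to late, and late to mature, the late list being without *Lyz2*, with AAV-CTRL and AAV-mVEGF-C side by side and points for single libraries. The groups overlap for the first 2 ratios and do not for late to mature, where AAV-CTRL lies at -0.62 and -0.59 and AAV-mVEGF-C at -0.87 and -0.92.

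Of 30 further neutrophil genes, 29 were in the table under their listed symbol and were tested, and 1 was higher and 0 were lower at an unadjusted p under 0.05, against 1.46% and 1.18% of all genes. AAV-CTRL 1 was above AAV-CTRL 2 for 26 of the 29. The higher one, not called after adjustment, was *Cebpb*, the C/EBP factor of emergency granulopoiesis, with 224, 233, 358, and 451 CPM. Its log2 fold change by edgeR was 0.82 (SE 0.18, adjusted p = 0.999). In TPM it had 159.7, 130.4, 171, and 215, so the groups did not overlap on either scale but lay closer in TPM. The median over the 29 was 0.03. Of 14 ligands, signalling partners, and homing receptors, 13 were tested, and 0 were higher and 0 lower at an unadjusted p under 0.05, against the same shares of all genes, with a median of 0.058. *Csf3*, the gene of G-CSF, was the one not tested, with 0, 6, 15, and 3 estimated reads.

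Several lists of markers of other cells also differed between the control pools. The summed TPM of 8 eosinophil markers was 493, 155, 355, and 317, all 8 being higher in AAV-CTRL 1 than in AAV-CTRL 2, which is the library order of *Mpo*. The 10 cell cycle genes summed to 333, 204, 226, and 194 TPM, all 10 being higher in AAV-CTRL 1 than in AAV-CTRL 2. In the opposite direction, 7 markers of B cells summed to 122, 281, 99.0, and 117 TPM and 12 macrophage markers to 714, 1129, 541, and 854 TPM, with 0 of 7 and 0 of 12 higher in AAV-CTRL 1. The 10 monocyte markers, which share myeloid precursors with neutrophils, summed to 1756, 1519.8, 1333, and 1513 TPM, and 9 stem and progenitor genes to 94.9, 105, 89.0, and 77.9 TPM. Neither sum had the 3.96-fold gap of the early granule list between the controls. In CPM, 4 of the 10 and 3 of the 9 were higher in AAV-CTRL 1 than in AAV-CTRL 2. The monocyte list was split, with *Chil3* (749 and 381 TPM) and *Ly6c2* (261 and 137 TPM) higher in AAV-CTRL 1, and *Cx3cr1* (24.5 and 49.6 TPM) and *Csf1r* (145 and 233 TPM) lower. The part of these cells in the values of the granule genes was not tested.

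Between groups, 8 mast cell and basophil markers summed to 1388 and 1037 TPM in AAV-CTRL and to 691 and 761 TPM in AAV-mVEGF-C, and 10 erythroid genes summed to 211 and 256 against 41.7 and 79.3 TPM. The 10 genes of stroma and bone summed to 107 and 165 against 56.2 and 77.5 TPM, and 8 of B cell precursors to 23.7 and 70.4 against 20.1 and 28.7 TPM. The 8 T and NK cell markers ran the other way, at 137 and 159 against 175 and 172 TPM. At an unadjusted p under 0.05, 5 of 8, 5 of 10, 4 of 10, and 2 of 8 of these genes were lower and 2 of the 8 T and NK cell genes were higher, against 1.18% lower and 1.46% higher of all genes, with 0 called at an adjusted p under 0.05 by edgeR. The sums for monocytes, B cells, and stem and progenitor cells given above were also lower in both AAV-mVEGF-C pools than in both controls. For monocytes the gap was small (1513 against 1519.8 TPM at the nearest). In CPM, single genes of these lists were lower in both pools for 2 of 10, 1 of 7, and 2 of 9. The share was 15.2% of all genes tested and 16.8% of those with at least 10 CPM. Among the lists of other cells, the 2 groups overlapped for eosinophils, macrophages, the cell cycle, and B cell precursors, and they overlapped for each of the 3 stage lists. Of the markers in the lists of other cells, 0 were at 0 in all libraries. Whether these cells bear on the neutrophil genes was not tested.

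**Figure D5:**
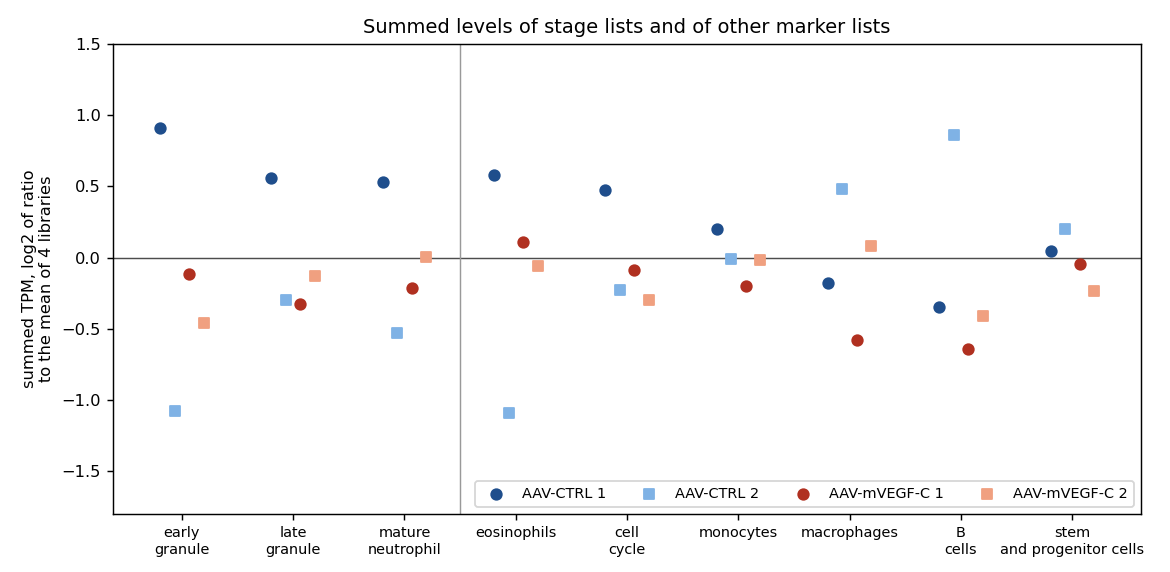
Summed TPM of the 3 stage lists and of lists of other cells in each library, as the log2 of the ratio to the mean of the 4 libraries, with 1 point per library. AAV-CTRL 1 is the highest point for the early, late, and mature lists, for eosinophils, and for the cell cycle, and AAV-CTRL 2 is the highest for macrophages, B cells, and stem and progenitor cells.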

How the data were processed

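The authors deposited 2 tables of 55401 genes by 4 libraries, one of estimated counts, which are reads assigned to genes, need not be whole, and were not normalized, and one of TPM. The libraries were made with a stranded total RNA kit for picogram inputs. Per the labels, the reads were handled with FastQC, Trimmomatic, DRAGEN, and Picard on mm10; their order and the annotation are not given in the sources used here. Depth was 32520709 to 46409700 reads per library. No column was left unused.

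Counts were rounded and tested over the whole table with edgeR 4.0.16 in R 4.3.3 (TMM scaling, filterByExpr at its defaults, glmQLFit and glmQLFTest, all 4 libraries, no covariate), with Benjamini-Hochberg adjustment over the 19806 genes kept and a threshold of 0.05. Each SE was taken as the log2 fold change over the root of its F value. CPM use the TMM-scaled library sizes. Summed TPM per list and the percent of reads per library were compared with exact two-sided permutation tests (scipy 1.17.1). P-values measure the spread between pools. The main edgeR test was also run on counts simulated from the mean levels and common dispersion of its own fit.

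The members, the stage lists, and the other lists were chosen with earlier results of these data known. Values in every library, the log2 fold change, and its SE are given for members with an unadjusted p under 0.05 and for the 4 members of each stage list with the highest mean TPM. Of the other pathway lists, genes with an unadjusted p under 0.05 are named. The late to mature ratio and the crossed pairing were chosen after seeing the data. Alternatives were DESeq2 1.42.0, the tool named by the study, limma 3.58.1 (voom, and log2 TPM with pseudocounts of 1 and 0.1), RLE scaling, library sizes without the members, robust fitting, no filter, a filter of 10 reads in each library, a replicate block, and each library left out in turn.

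The sample labels number the pools of each group by experiment, but the column labels number them otherwise, which leaves the pairing of pools open to question. The deviations of same-numbered pools from their group means correlated at r = -0.13 across genes in edgeR's log2 CPM and at -0.035 in log2(CPM + 1). Over the 36 members alone the correlation was 0.66 in edgeR's log2 CPM. The numbers were not taken as pairs in the main fit, and a block on them is given as an alternative. Promoter sequences are RefSeq's on GRCm38.p6. A single promoter record was found for 31 members, several for 2, and none was used for the other 3. Gene models are those of GENCODE M21 on GRCm38, which holds the identifiers of all 36 members at the same version.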

Additional observations from a re-analysis of the deposited data

How the results depend on the processing

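The count of members called was 0 of 36 under the other scalings, the stricter read filter, robust fitting, DESeq2, limma-voom, and TPM. It was 1 (*Ctsg*, lower) without the filter, where 0.659% of 40674 genes were called, and 0 to 9 when libraries were left out, with 5 higher without AAV-CTRL 1 and 9 lower without AAV-CTRL 2. The difference in the percent of reads ran from -1.22 (without AAV-CTRL 2) to 0.62 (without AAV-CTRL 1), that in the early to mature ratio from -0.56 to 0.36 (0.18 without AAV-mVEGF-C 2), and that in the early to late ratio from -0.29 to 0.67 (-0.067 without AAV-mVEGF-C 1). The early to late difference was also -0.063 as a mean of log2(TPM + 1). Without a library in turn, the late to mature difference stayed between -0.31 and -0.27, and its other settings gave -0.38 to -0.10. The list medians ran from -1.005 to 0.82 (early), -0.34 to 0.41 (late), and -0.11 to 0.61 (mature) when libraries were left out. The cause was not tested.

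Among single genes, leaving out libraries gave log2 fold changes of -1.15 to 1.12 for *Mpo*, -0.999 to 0.99 for *Elane*, -1.01 to 1.21 for *Prtn3*, -0.89 to 0.59 for *Fcnb*, -0.66 to 0.31 for *Ltf*, -0.70 to 0.40 for *Lcn2*, -0.98 to 0.24 for *Ngp*, -0.12 to 0.18 for *Lyz2*, -0.40 to 0.65 for *S100a8*, -0.44 to 0.66 for *S100a9*, and -1.03 to 0.41 for *Anxa1*. Limma-voom moved the early median to -0.018, *Mpo* to -0.023, and *Elane* to -0.013, and turned *Prtn3* to 0.074. On TPM with a pseudocount of 1 the early median was -0.16, *Mpo* -0.14, *Elane* -0.18, and *Prtn3* -0.098. TPM with either pseudocount turned *Lyz2* to -0.14, *S100a8* to -0.11, and *S100a9* to -0.12. *S100a9* was -0.0067 without the filter and -0.0026 in DESeq2. *Csf3r* and *Retnlg* kept a positive value in all settings. The median of all genes moved by over 0.1 with DESeq2 (0.25), without the filter (0.22), without AAV-CTRL 2 (0.13), and on TPM with the pseudocount of 0.1 (-0.11).

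With the replicate number as a block, 0 of 36 members were called against 0.0555% of all genes, the median of the early list was -0.017, and *Prtn3* was at 0.089. The deviations of same-numbered pools correlated only weakly over all genes (r = -0.13 in edgeR's log2 CPM and -0.035 in log2(CPM + 1)), which gives no firm direction, and a crossed pairing was tried after the data had been seen. It called 0 of 36 members against 0.273% of all genes, with *Prtn3* at 0.089. Over the 36 members alone, the same correlation was 0.66. With 2 pools per group no test of a single value can go below p = 0.333 (exact permutation).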
